A study of Mus musculus with 6 samples.

Results

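Metalloproteases and their inhibitors were followed in sorted thymic endothelial cells (ECs). The group comprised 10 genes taken by gene symbol from the deposited tables. These were the surface proteases Adam10, Adam15 and Adam17, the secreted proteases Adamts1, Adamts4 and Adamts9, the matrix metalloproteases Mmp2 and Mmp14, and the tissue inhibitors of metalloproteases Timp2 and Timp3. All 10 were found among 24457 genes, and all 10 passed a filter that required a level of at least 1 FPKM (fragments scaled by transcript length and by the number of mapped fragments) in at least 2 libraries. The filter kept 11717 genes.

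RNA came from wildtype female C57BL/6 mice aged 4 to 6 weeks, with no treatment or engineered allele in any group. CD31+CD45-EpCAM- cells of the digested thymus were divided by Ly6C and P-selectin (Selp) into Ly6C+Selp- ECs (type I), Ly6C+Selp+ ECs (type II) and Ly6C-Selp+ ECs (type III), with 2 libraries per subset and 6 in all. The study asked how the Ly6C-Selp+ ECs, the portal through which blood-borne progenitors were proposed to enter the thymus, differ from the other thymic ECs. The labels do not say whether the 2 libraries of a subset came from separate mice, so the p-values below measure only the spread between these libraries.

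ADAM proteases sit in the plasma membrane and cut adhesion molecules, receptors and ligands off the cell surface. ADAMTS proteases and MMPs act mostly on the matrix around the vessel, where they cut proteoglycans, collagens and the proteins that bind them. TIMPs bind the active site of these enzymes, TIMP3 stays bound to the matrix and blocks several ADAM and ADAMTS proteases as well as MMPs, and TIMP2 also bridges MMP14 and the proform of MMP2 at the cell surface, so that it takes part in MMP2 activation.

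The files gave an estimated 1452476 to 2423171 fragments per library, computed from the width of the deposited FPKM intervals, and 3 fragments corresponded to a median of 0.324 to 0.553 FPKM. The sums of FPKM over all genes ran from 221458 to 300932. Endothelial genes were high in every library: the summed FPKM of 8 endothelial markers was 1907 to 2783, with Pecam1 at 496 to 867 FPKM and Cdh5 at 414 to 632 FPKM. The sort genes followed the labels, since Selp was at no more than 7.87 FPKM in type I ECs and at 313 to 657 FPKM in the other subsets, and Ly6c1 fell from 1010 and 692 FPKM in type I ECs to 99.6 and 59.7 FPKM in type III ECs. Both defined the sort, and Ly6c1 has a near-identical copy, Ly6c2, with which it can share reads. Of 8 endothelial markers, 2 were called lower in type III than in type I ECs, beside 4.14% of all genes in either direction. They were Cldn5, a tight junction gene, and Kdr, a receptor of VEGF (limma, adjusted p = 0.000252 and 0.00794). By the sign of the difference, 6 of the 8 were lower in type III ECs. The other 2, Pecam1 and Emcn, were higher there and were not called. Replicate 1 held more transcripts of blood cells than replicate 2 in each subset: the summed FPKM of 6 myeloid markers was 224 and 31.4 in type I ECs, 84.8 and 40.7 in type II ECs, and 386 and 77.5 in type III ECs, and that of 7 thymocyte markers was 72.5 and 20.5, 47.4 and 36.6, and 124 and 59.5. Of these 6 myeloid genes Cd14 was called higher in type III than in type I ECs, a call lost without type I replicate 2 or type III replicate 1. Beside this 1 call of 6, 4.14% of all genes tested were called in that comparison. Type III libraries also held the highest sums of 3 lymphatic markers, at 6.19 to 20.6 FPKM beside 1.92 to 5.17 FPKM in the other 4 libraries. Of these, Lyve1 was at 12.4 and 1.07 FPKM in type III replicates 1 and 2, and Pdpn overlapped between subsets. Prox1 was at 3.05 and 3.22 FPKM in type III ECs and at no more than 1.09 FPKM elsewhere. The 6 thymic epithelial markers summed to 13.0 to 46.2 FPKM with overlap between subsets. No gene of these lists was at 0 in every library. In RNA from sorted populations, fewer cells of a type and less RNA per cell cannot be told apart.

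All 10 genes were well expressed, and their order was similar in the 6 libraries. FPKM is scaled by transcript length, which allows a rough comparison of levels between genes. The scaling does not remove other differences between genes, such as exon sequence shared with a gene on the opposite strand. Adamts1 was the highest of the 10 in all 6 libraries, at 300.2 to 398 FPKM, which placed it between the 98.8 and 99.3 percentiles of the genes tested. Adam15 and Timp3 took places 2 and 3 in the 4 type I and type II libraries. Mmp2 and Adam17 held the last 2 places in every library. The one gene that moved far in this order was Timp2, which was number 7 and 8 in type I ECs, number 5 in both type II libraries and number 3 in both type III libraries. Timp3 was number 2 and 3 in type I ECs and number 4 in both type III libraries.

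**Figure D1:**
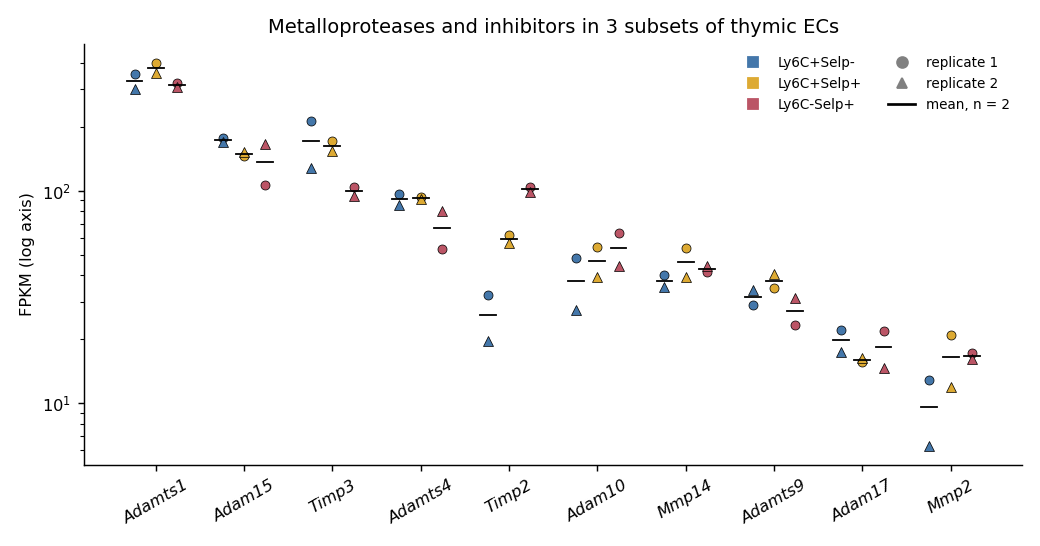
FPKM (log axis) of the 10 genes in each of the 6 libraries, coloured by subset (Ly6C+Selp- type I, Ly6C+Selp+ type II, Ly6C-Selp+ type III). Timp2 goes from 19.7 and 32.3 FPKM in type I ECs to 98.9 and 104 FPKM in type III ECs, and Adamts1 lies between 300.2 and 398 FPKM.

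Timp2 (mm9, chr11:118162375-118216725, minus strand) rose from type I to type III ECs. It was at 32.3 and 19.7 FPKM in type I ECs, 61.9 and 56.9 FPKM in type II ECs, and 104 and 98.9 FPKM in type III ECs. No 2 of the types overlapped, and the pair of libraries within each subset lay closer together than neighbouring subsets did. An estimated 258 to 1294 fragments stood behind each value. Between type III and type I ECs the difference was 1.97 on the log2 scale of FPKM + 1 (standard error 0.28), which is 3.91-fold, and it passed the test (limma, adjusted p = 0.0047). Taken within each replicate number, it was 1.66 and 2.27. The call was kept with each library left out in turn (1.62 to 2.31) and was lost only when no filter on low levels was used (adjusted p = 0.127, in a range of 0.000893 to 0.127 over 14 alternative settings).

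The subset positive for both markers lay between the others for Timp2. Type II ECs exceeded type I ECs by 1.20 on the log2 scale (standard error 0.28), which missed the threshold (limma adjusted p = 0.152). With the replicate number as a block it passed (adjusted p = 0.0324, in a range of 0.0205 to 0.614 over 14 settings), and also with either other scaling and without type I replicate 1 (adjusted p = 0.0459). Type III ECs exceeded type II ECs by 0.77 (95% interval 0.14 to 1.39, adjusted p = 0.395), and this difference passed under none of the 14 settings.

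Timp3 (mm9, chr10:85763157-85812250, plus strand) was lowest in type III ECs, where Timp2 was highest. It was at 214 and 128 FPKM in type I ECs, 172 and 153 FPKM in type II ECs, and 104 and 94.0 FPKM in type III ECs. Both type III libraries lay below the other 4, and types I and II overlapped. Against type I ECs the log2 difference was -0.74 (95% interval -1.37 to -0.11) and missed the threshold (limma adjusted p = 0.257). It passed with median-of-ratios scaling (-0.83, adjusted p = 0.0231) and with quantile normalization (-0.90, adjusted p = 0.0162), in a range of 0.0162 to 0.705 over the 14 settings. Against type II ECs it was -0.71 (95% interval -1.34 to -0.08, adjusted p = 0.454). Between types I and II the difference was -0.03, and it turned to 0.03 with median-of-ratios scaling. Syn3, a gene on the opposite strand that shares exon sequence with Timp3, was at most at 0.626 FPKM.

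The sum of mesenchymal transcripts was lowest in type III ECs, as Timp3 was, but single markers went both ways against type I ECs. The summed FPKM of 13 mesenchymal markers was 780 and 376 in type I ECs, 880 and 573 in type II ECs, and 267 and 325 in type III ECs. Against type I ECs, 9 of the 13 were lower in type III ECs and 4 were higher. The 4 were Acta2 (log2 difference 1.16), Myh11 (0.73), Dcn (0.23) and Lum (0.16), none of them called. Against type II ECs all 13 were lower in type III ECs. Of these 13 genes, Pdgfrb and Notch3, receptors of pericytes and mural cells, were called lower in type III than in type I ECs, calls that were lost without type I replicate 1 or type III replicate 1 (adjusted p of 0.0052 to 0.217 and 0.0104 to 0.299 over the 14 settings). These 2 calls of 13 stand beside 4.14% of all genes tested. Rgs5, a pericyte marker, was at 346 and 114, 284 and 137, and 48.6 and 45.4 FPKM in the 3 subsets. The difference of Rgs5 between types III and I missed the threshold (limma adjusted p = 0.0575). The ratio of Timp3 to Rgs5 was 0.617 and 1.13, 0.604 and 1.12, and 2.14 and 2.07. The part of these cells in the Timp3 levels was not tested. The part of these cells in the Timp2 levels was not tested either. The myeloid sum differed widely between the type III libraries, at 386 and 77.5 FPKM, where Timp2 was at 104 and 98.9 FPKM. The parts of myeloid and of lymphatic cells in the Timp2 levels were not tested.

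Timp4, an inhibitor with a narrow range of tissues, was the other TIMP that was called. It was at 15.0 and 11.4 FPKM in type I ECs and at 4.18 and 5.10 FPKM in type II ECs. In type III ECs it was at 1.11 FPKM in one library, an estimated 3 fragments, and listed at 0 in the other. It was called lower in type III than in type I ECs (limma, adjusted p = 0.00254), and the call was lost with no filter on low levels (adjusted p = 0.133, in a range of 0.00111 to 0.133). A fold is not given, because the level in type III ECs was at the floor of the depth. Timp1, an inhibitor induced by inflammation and growth factors, was low, at 1.87 to 6.42 FPKM, and higher in both type III libraries than in the other 4, without passing the threshold against type I ECs (0.89 on the log2 scale, adjusted p = 0.312).

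The sum of the 4 TIMP transcripts stayed within the spread of the libraries while its make-up shifted. The sum was 265 and 161 FPKM in type I ECs, 240 and 219 FPKM in type II ECs, and 215 and 199 FPKM in type III ECs. Timp2 made up 12.2% and 12.2% of it in type I ECs, 25.8% and 26.0% in type II ECs, and 48.5% and 49.6% in type III ECs. Timp3 made up 80.7% and 79.6%, then 71.5% and 70.0%, then 48.5% and 47.2%. Timp4 went from 5.66% and 7.05% to 1.74% and 2.34%, and to 0.515% and 0% in type III ECs. The replicates of a subset differed by less than the steps between subsets, and no 2 subsets overlapped for Timp2, Timp3 or Timp4. These shares do not depend on how libraries are scaled against each other. They were computed after the levels had been seen and are given as a description.

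**Figure D2:**
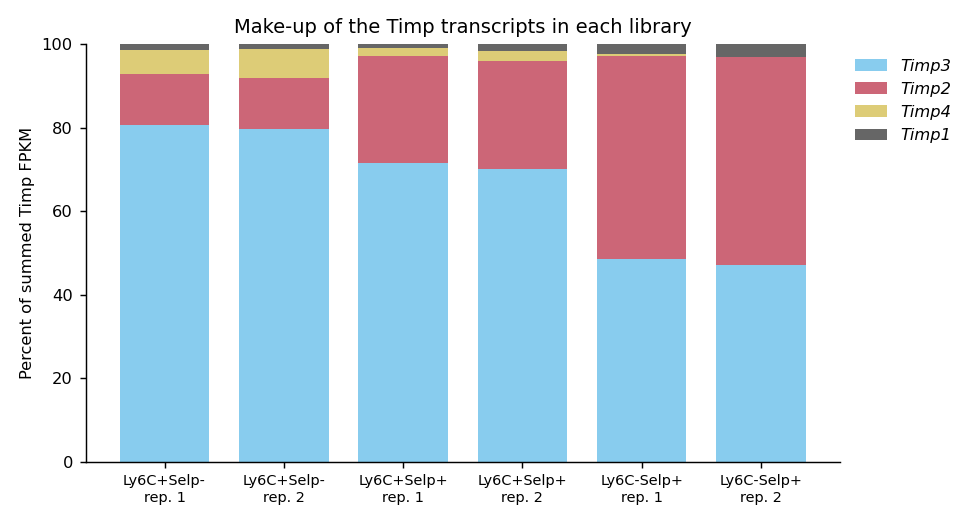
Share of each Timp gene in the summed Timp FPKM (percent, bars stacked to 100) in each of the 6 libraries. The Timp2 share is 12.2% in both type I libraries and 48.5% and 49.6% in the type III libraries, where it equals or exceeds the Timp3 share.

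The ratio of Timp2 to Timp3 within a library was 0.151 and 0.153 in type I ECs, 0.360 and 0.372 in type II ECs, and 1.00 and 1.05 in type III ECs. No test is given for this ratio or for those that follow, since 0.33 is the smallest p of an exact two-sided permutation test with 2 libraries against 2. The spread between replicates was small beside the steps between subsets, with means of 0.152 ± 0.002, 0.366 ± 0.008 and 1.03 ± 0.04 (SD, n = 2).

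The pair of proteases that TIMP2 bridges gave no call. Mmp14 (mm9, chr14:55050441-55060095, plus strand), the membrane-bound protease that activates the MMP2 proform, was at 40.2 and 35.4 FPKM in type I ECs, 53.8 and 39.1 FPKM in type II ECs, and 41.3 and 44.1 FPKM in type III ECs. The values of the 3 subsets lay close together, although both type III libraries were above both type I libraries. The log2 difference between these was 0.18 (95% interval -0.40 to 0.75, adjusted p = 0.855).

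Mmp2 (mm9, chr8:95351227-95377319, plus strand), a gelatinase that cuts collagen IV, had the lowest mean level of the group. It was at 12.9 and 6.29 FPKM in type I ECs, 20.9 and 11.9 FPKM in type II ECs, and 17.2 and 16.1 FPKM in type III ECs, on an estimated 68 to 172 fragments. Type I replicate 2 was well below the other 5 libraries. The difference of type III from type I ECs was 0.81 (95% interval -0.05 to 1.67) and missed the threshold (limma adjusted p = 0.398). Against type II ECs it was 0.07 and turned negative with median-of-ratios scaling (-0.07) and quantile normalization (-0.09).

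The ratios of both proteases to Timp2 were lowest in type III ECs. The Mmp14 to Timp2 ratio was 1.24 and 1.80 in type I ECs, 0.869 and 0.687 in type II ECs, and 0.396 and 0.447 in type III ECs. The FPKM of Mmp14 was above that of Timp2 in type I ECs and below it in types II and III. The Mmp2 to Timp2 ratio was 0.399 and 0.319, 0.337 and 0.210, and 0.165 and 0.163, with overlap between types I and II. The Mmp14 to Timp3 ratio was highest in type III ECs, at 0.188 and 0.276 in type I ECs, 0.313 and 0.255 in type II ECs, and 0.396 and 0.470 in type III ECs, with overlap between types I and II.

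**Figure D3:**
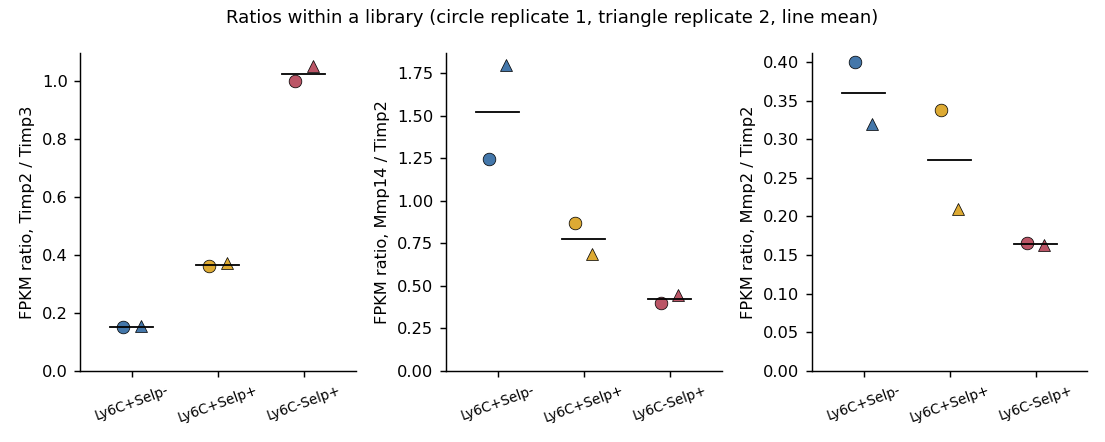
FPKM ratios within a library by subset, with a circle for replicate 1, a triangle for replicate 2 and a line for the mean. Timp2 over Timp3 steps from 0.151 and 0.153 through 0.360 and 0.372 to 1.00 and 1.05, while Mmp14 over Timp2 goes down from 1.24 and 1.80 to 0.396 and 0.447.

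The sheddases were steady or varied within subsets. Adam10 (mm9, chr9:70526808-70628036, plus strand), which cuts Notch receptors, VE-cadherin and CX3CL1, was at 48.1 and 27.3 FPKM in type I ECs, 54.0 and 39.1 FPKM in type II ECs, and 62.9 and 44.3 FPKM in type III ECs. Replicate 1 was above replicate 2 in every subset and all 3 subsets overlapped. Within each replicate number the order was the same, and type III exceeded type I ECs by 0.38 and 0.68 on the log2 scale. The difference missed the threshold (0.53, 95% interval -0.22 to 1.28, limma adjusted p = 0.582), and it also missed it with the replicate number as a block.

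Adam17 (mm9, chr12:21329370-21379493, minus strand), the enzyme that releases TNF and cuts its receptors, was at 22.1 and 17.3 FPKM in type I ECs, 15.7 and 16.2 FPKM in type II ECs, and 22.0 and 14.6 FPKM in type III ECs. The widest spread was between the type III libraries, which held one of the 2 highest and the lowest value. The difference of type III from type I ECs was -0.12 (95% interval -0.77 to 0.53, limma adjusted p = 0.925). Iah1, on the opposite strand and sharing exon sequence with Adam17, reached 11.2 FPKM, and whether the counting used strand is not given in the sources used here.

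Adam15 (mm9, chr3:89143562-89153932, minus strand), a membrane ADAM with an integrin-binding domain, was at 177 and 170 FPKM in type I ECs, 145 and 151 FPKM in type II ECs, and 106 and 166 FPKM in type III ECs. It was the most abundant ADAM in every library. Types II and III lay below the type I libraries, but type III replicate 2 lay close to them. The difference of -0.38 (95% interval -0.97 to 0.21) between type III and type I ECs missed the threshold (limma adjusted p = 0.626).

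Of the 3 ADAMTS genes, Adamts1 and Adamts9 were highest in type II ECs. Adamts1 (mm9, chr16:85794073-85803360, minus strand), which cuts versican and aggrecan and binds VEGF, was at 356 and 300.2 FPKM in type I ECs, 398 and 357 FPKM in type II ECs, and 320 and 309 FPKM in type III ECs. Both type II libraries were above the other 4. The steps were small, at 0.21 above type I ECs (95% interval -0.30 to 0.71, limma adjusted p = 0.968) and with type III ECs 0.26 lower than type II ECs (adjusted p = 0.774).

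Adamts9 (mm9, chr6:92722693-92851435, minus strand), which also cuts proteoglycans and restrains vessel growth, was at 28.8 and 34.3 FPKM in type I ECs, 35.0 and 40.4 FPKM in type II ECs, and 23.4 and 31.1 FPKM in type III ECs. Replicate 2 was the higher in each subset, the reverse of Adam10. Both type II libraries were above the other 4 here too, without a difference that passed the threshold (type III against type II ECs -0.46, 95% interval -1.05 to 0.12, limma adjusted p = 0.620).

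Adamts4 (mm9, chr1:173180553-173190053, plus strand), an aggrecanase, was at 96.9 and 85.7 FPKM in type I ECs, 93.3 and 91.3 FPKM in type II ECs, and 53.0 and 80.5 FPKM in type III ECs. The 4 type I and type II libraries lay within a narrow band, and both type III libraries were below it, replicate 1 by far more than replicate 2. The difference from type I ECs was -0.47 (95% interval -1.06 to 0.12, limma adjusted p = 0.507), and it was -0.86 within replicate 1 and -0.09 within replicate 2.

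Counted over the group, 1 of the 10 genes, Timp2, was called between type III and type I ECs, beside 4.14% of all genes tested. None of the 10 was called between type II and type I ECs, where 0.393% of all genes were, or between type III and type II ECs, where 0.222% were. At an unadjusted p under 0.05, Timp2 alone passed in the former comparison, beside 7.48% of all genes tested, and Timp2 and Timp3 in the latter, beside 9.99%. Between type III and type I ECs the same 2 genes passed at that level, beside 14.1%. With the replicate number as a block, 971 rather than 485 genes were called between type III and type I ECs, 183 rather than 46 between type II and type I ECs, and 229 rather than 26 between types II and III. The libraries of the extreme subsets did not overlap for 6 of the 10 genes, higher in type III ECs for Mmp2, Mmp14 and Timp2 and lower for Adam15, Adamts4 and Timp3, beside 37.9% of all genes tested (20.7% higher and 17.1% lower). Between types II and I they did not overlap for 5 of the 10, beside 33.6%, and between types III and II for 5 of the 10, beside 41%. The median log2 difference of the 10 genes was -0.09 between type III and type I ECs, 0.23 between type II and type I ECs, and -0.13 between type III and type II ECs, beside 0.08, -0.06 and 0.14 over all genes tested. Median-of-ratios scaling took the last of these medians over all genes from 0.14 to 0.01. The 3 comparisons share libraries in pairs and are not independent.

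**Figure D4:**
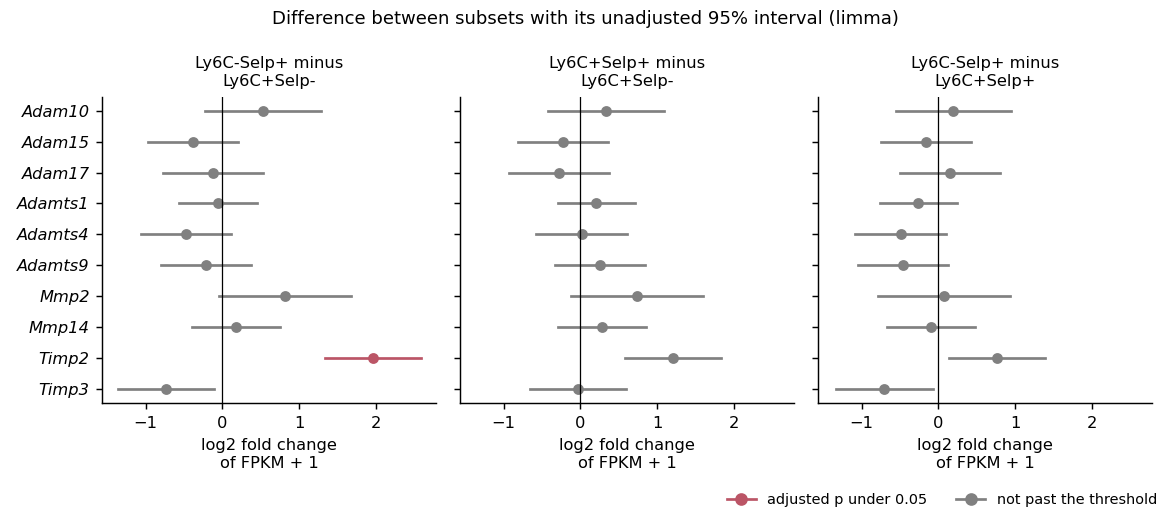
Log2 difference of FPKM + 1 with its unadjusted 95% interval (limma) for the 10 genes, in the 3 comparisons between subsets. The largest difference is that of Timp2 between type III and type I ECs, at 1.97, and the intervals of the 8 proteases include 0 in all 3 comparisons.

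The wider protease and inhibitor families held 1 call. Of 54 further ADAM, ADAMTS, ADAMTS-like, MMP and inhibitor genes, 30 passed the filter. Of these 30, 1, Timp4, was called between type III and type I ECs (limma), beside 4.14% of all genes tested. None was called for types II against I or III against II, beside 0.393% and 0.222% of all genes. The study's own list for types I and III, made with another test (Cuffdiff), held Adamts7, Adamts12 and Adamts18 of these families and not Timp4. Of the 10 genes followed here, that list held Timp2 alone, also higher in type III than in type I ECs. Its FPKM values for Timp2 were above those used here in every library. Adamts18 was at 0.615 and 1.86 FPKM in type I ECs and 3.06 and 5.39 FPKM in type III ECs (1.24, limma adjusted p = 0.179). An unadjusted p under 0.05 was reached by 8 of the 30 for types III against I, 3 for II against I and 7 for III against II, beside 14.1%, 7.48% and 9.99% of all genes tested. Among the other ADAM proteases, 4 of 6 passed the filter, led by Adam9 at 10.6 to 22.9 FPKM, with Adam19 at 0.919 to 4.88 FPKM and Adam12 at 1.07 to 3.17 FPKM. Adam23, Adam11 and Adam22, which lack protease activity, had mean levels of 1.25, 0.552 and 0.467 FPKM.

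Of 16 other ADAMTS proteases, 9 passed the filter. Adamts10, a protease tied to fibrillin microfibrils, was at 10.1 and 8.33 FPKM in type I ECs, 4.46 and 8.01 FPKM in type II ECs, and 14.1 and 12.8 FPKM in type III ECs. Adamts12 was at 7.07 and 5.96, 8.41 and 5.03, and 1.91 and 1.84 FPKM, a difference of -1.38 from type I ECs that came close to the threshold (limma, adjusted p = 0.0590). Adamts7 was at 6.56 and 8.13, 4.40 and 4.18, and 2.16 and 3.82 FPKM. Both type III libraries were below the other 4 for Adamts12 and Adamts7 and above them for Adamts10. Papln, Adamtsl4 and Adamtsl3 led the ADAMTS-like proteins, which have no protease domain, at mean levels of 11.5, 4.33 and 1.47 FPKM.

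Of 19 other MMPs, 8 passed the filter. Mmp15, a second membrane-bound MMP, was at a level near that of Mmp14, at 47.8 and 49.8 FPKM in type I ECs, 35.9 and 46.2 FPKM in type II ECs, and 45.6 and 62.1 FPKM in type III ECs. Mmp28 and Mmp9 followed at means of 7.13 and 3.94 FPKM. Reck, a membrane-anchored inhibitor of MMPs, was at 2.41 and 2.11, 3.97 and 3.68, and 4.10 and 5.19 FPKM. It was higher in each type II or III library than in the type I libraries, but missed the threshold (0.79, limma adjusted p = 0.297).

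The genes that mature and move these proteases were tested as well. None of 13 was called for types III against I, II against I or III against II (limma), beside 4.14%, 0.393% and 0.222% of all genes tested. In the same order of comparisons, 3, 4 and 3 had an unadjusted p under 0.05, beside 14.1%, 7.48% and 9.99% of all genes tested. Furin, which removes the prodomain of ADAMs, ADAMTSs and MMP14, was at 44.6 and 47.7 FPKM in type I ECs, 30.0 and 28.7 FPKM in type II ECs, and 24.6 and 27.1 FPKM in type III ECs. The subsets did not overlap, and the difference of type III from type I ECs was -0.81 (limma, adjusted p = 0.107). Tspan15 and Tspan14, tetraspanins that carry ADAM10 to the surface, were at means of 30.1 and 23.7 FPKM. Of these 13 genes, the study's own Cuffdiff list for types I and III held Furin, Rhbdf2 and Tspan5.

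Transcripts of surface proteins known to be cut by these enzymes changed in both directions. Of 21 such genes tested, 2 were higher and 5 lower in type III than in type I ECs, beside 4.14% of all genes called in either direction. None was called for types II against I or III against II (limma), where 0.393% and 0.222% of all genes were, and 6 in each had an unadjusted p under 0.05, beside 7.48% and 9.99%. The median log2 difference of the 21 genes between types III and I was 0.12, beside 0.08 over all genes. Vcam1, an adhesion molecule for leukocytes, was at 55.7 and 22.2 FPKM in type I ECs, 110 and 94.8 FPKM in type II ECs, and 276 and 162 FPKM in type III ECs. The subsets did not overlap, and the log2 difference of the extremes was 2.55 (limma, adjusted p = 0.00941). Procr, the endothelial receptor of protein C, rose from 27.7 and 15.7 FPKM to 75.3 and 84.6 FPKM (1.88, adjusted p = 0.00939).

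The 5 that were lower comprised Notch4, Efnb2, Kdr and Nrp1, which act in vessel growth and patterning, and the chemokine gene Cx3cl1. Notch4 was at 68.7 and 76.6 FPKM in type I ECs, 29.1 and 27.3 FPKM in type II ECs, and 13.0 and 13.8 FPKM in type III ECs, a log2 difference of -2.36 between the extremes (limma, adjusted p = 0.000783) that was called under all 14 settings. Efnb2, an arterial ligand of Eph receptors, went from 44.9 and 39.1 FPKM to 7.77 and 9.86 FPKM (-2.14, adjusted p = 0.00531). Cx3cl1, a membrane-bound chemokine cut by ADAM10 and ADAM17, went from 40.3 and 33.6 FPKM to 10.6 and 10.8 FPKM (-1.69, adjusted p = 0.00693).

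Kdr went from 206 and 173 FPKM to 63.4 and 70.2 FPKM (-1.49, limma adjusted p = 0.00794), and Nrp1, a co-receptor of VEGF, from 180 and 113 FPKM to 55.8 and 44.1 FPKM (-1.51, adjusted p = 0.0255). The calls of Kdr and Nrp1 were lost without either type III library, and that of Nrp1 also without type I replicate 1 (adjusted p up to 0.0862 for Kdr and 0.307 for Nrp1 over the 14 settings). The call of Vcam1 was lost without type III replicate 1 (adjusted p = 0.0629, in a range of 0.000742 to 0.299) and that of Procr without type III replicate 2 (0.0627, in a range of 0.00223 to 0.196). Cdh5, which encodes VE-cadherin and is cut by ADAM10, was at 632 and 595 FPKM in type I ECs and at 414 and 486 FPKM in type III ECs, and missed the threshold (-0.45, adjusted p = 0.427).

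Matrix substrates split likewise. Of 14 genes, 3 were higher and 5 lower in type III than in type I ECs, beside 4.14% of all genes called in either direction. Their median log2 difference was -0.01, beside 0.08. Between types II and I, 2 were called (limma), beside 0.393% of all genes, and between types III and II 0, beside 0.222%. An unadjusted p under 0.05 was reached by 8 for types III against I, 8 for II against I and 3 for III against II. The shares of all genes were 14.1%, 7.48% and 9.99%. The proteoglycan gene Bgn was at 79.7 and 54.9 FPKM in type I ECs, 224 and 178 FPKM in type II ECs, and 467 and 463 FPKM in type III ECs, and Thbs1, which encodes a matrix protein cut by ADAMTS1, was at 52.4 and 43.4, 126 and 177, and 185 and 244 FPKM. The log2 differences of the extremes were 2.79 for Bgn and 2.13 for Thbs1 (limma, adjusted p = 0.00058 and 0.00254). Both were also called between type II and type I ECs, at 1.58 and 1.63 (adjusted p = 0.0465 and 0.0468), calls that stood in 5 and 4 of the 14 settings (adjusted p of 0.00391 to 0.373 and 0.0117 to 0.418) and fell without type I replicate 2 and without any one of the type II or III libraries, and for Thbs1 also without type I replicate 1.

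Tfpi2, a secreted inhibitor of serine proteases that MMPs can cut, was at 4.88 and 2.93 FPKM in type I ECs, 25.9 and 11.3 FPKM in type II ECs, and 25.7 and 20.2 FPKM in type III ECs (extremes 2.31, limma adjusted p = 0.0128). The 5 that were lower encode basement membrane or adhesive proteins. Col4a1 went from 920 and 1151 FPKM in type I ECs to 364 and 483 FPKM in type III ECs (-1.29, adjusted p = 0.0201), and Col4a2 from 716 and 840 FPKM to 254 and 352 FPKM (-1.37, adjusted p = 0.0145). Nid2, which links laminin and collagen IV, went from 34.1 and 37.1 FPKM to 7.40 and 6.35 FPKM (-2.22, adjusted p = 0.00198), a call kept under all 14 settings.

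Lama4, a laminin chain of vessels, went from 57.2 and 50.7 FPKM to 21.0 and 17.1 FPKM (-1.46, limma adjusted p = 0.0291), and Fn1, fibronectin, from 24.6 and 32.0 FPKM to 11.4 and 9.58 FPKM (-1.34, adjusted p = 0.0224). These calls were less stable: of the 14 settings they stood in 6 for Col4a1, 11 for Col4a2 and Tfpi2, 10 for Fn1 and 8 for Lama4, with adjusted p up to 0.538, 0.324, 0.275, 0.135 and 0.280. With no filter on low levels, the calls between types III and I were lost for all substrates named here except Notch4 and Nid2. Without type III replicate 1, the calls of these 5 genes were lost. Col4a1, Fn1 and Lama4 also lost theirs without type III replicate 2 and without type I replicate 2, Tfpi2 without type I replicate 2, Col4a1 without either type II library and Lama4 without type I replicate 1. Vcan, which encodes versican, the substrate shared by ADAMTS1, ADAMTS4 and ADAMTS9, was low throughout, at 0.534 to 3.05 FPKM.

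**Figure D5:**
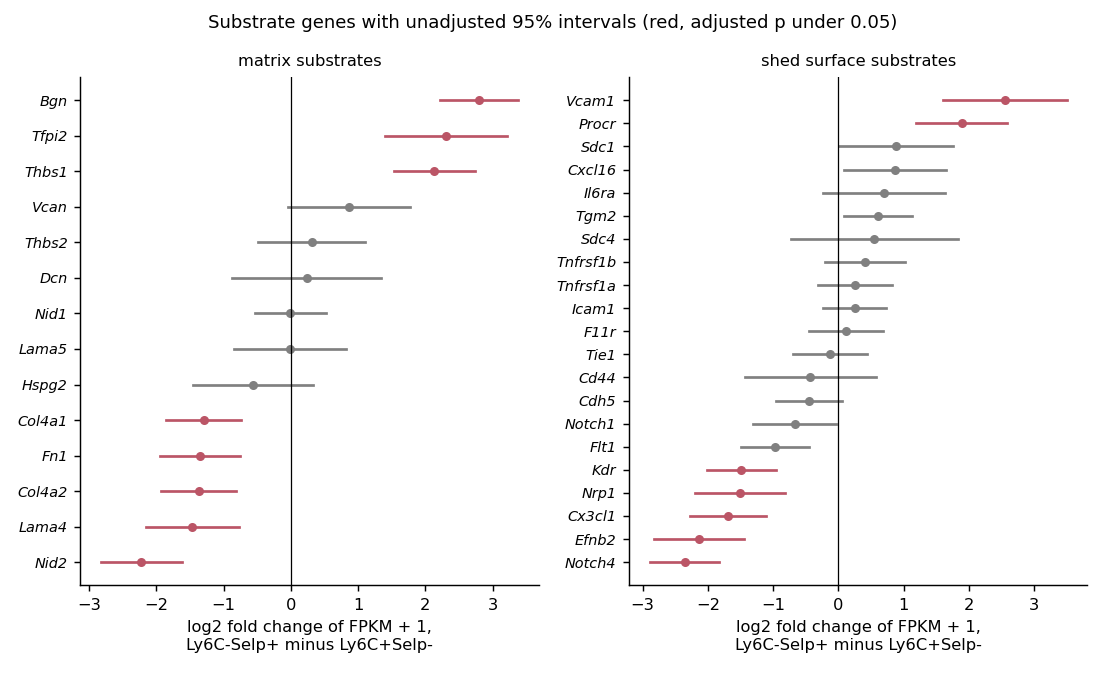
Log2 difference of FPKM + 1 between type III and type I ECs, with unadjusted 95% intervals (limma), for 21 surface substrates and 14 matrix substrates, with adjusted p under 0.05 in red. Calls lie on both sides of 0, from -2.36 for Notch4 to 2.79 for Bgn.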

How the data were processed

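Whole-transcriptome libraries of 3 subsets of thymic ECs, 2 per subset, were analysed. After trimming, the authors aligned the reads to mm9 by TopHat, computed FPKM in each library with Cufflinks and deposited these FPKM with their 95% interval bounds; their processing notes list CASAVA 1.8, TopHat2 2.0.10 and Cufflinks 2.1.1. The gene annotation and the use of strand in counting are not given in the sources used here. Read counts were not used, so the count-based test of the study could not be run on these values.

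Spike-in and reporter rows (95) were left out. Start coordinates are printed 1-based. Genes needed an FPKM of 1 or more in 2 or more libraries, which kept 11717 of 24457 genes. log2(FPKM + 1) was fitted with limma 3.58.1 (R 4.3.3, eBayes with trend) with 1 mean per subset over all 6 libraries, and p-values were adjusted by Benjamini-Hochberg over all genes tested, with a threshold of 0.05. The pseudocount of 1 understates differences of low genes. The fit was tested on simulated data, with the spread of each gene capped and 200 genes changed in type III ECs. Between types III and I it called 60% of the genes changed by 2 on the log2 scale. Of those changed by 3 it called 76%, and 2.86% of its calls were false. A difference that missed the threshold is therefore not shown to be absent.

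Replicate numbers come from the sample titles, which do not say what they mark. Same-numbered libraries deviated together from their subset means (correlations 0.199, 0.306 and 0.180 for the 3 pairs of subsets), so a fit with the number as a block is given where it changes a call.

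All 10 genes are named with every library; of each further list, genes that passed the threshold in a comparison are named, and otherwise the 3 with the highest mean FPKM. A further list is not reported here. Other genes were named, and ratios and shares computed, after their values were seen. The 10 genes and the lists were chosen with earlier results of these data known. Alternatives were a pseudocount of 0.1, no filter, a floor of 5, other scalings, the block, no trend, only the 4 libraries compared, and each library left out. Intervals of the fits rest on 2 libraries per subset, and fragment estimates cover counting error only.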

Additional observations from a re-analysis of the deposited data

Results flagged for a closer look

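Rows for reporter sequences, which no comparison above used, held signal although the labels describe wildtype mice. The mRFP row was at 18.2 and 1.83 FPKM in type I ECs, 23.7 and 5.31 FPKM in type II ECs, and 28.3 and 3.23 FPKM in type III ECs, with 28.3 FPKM the highest value, and it was higher in replicate 1 of each subset, on an estimated 32 and 4, 31 and 11, and 34 and 7 fragments. The GFP row reached at most 2.37 FPKM, an estimated 5 fragments.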

How the results depend on the processing

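The 14 alternative settings left most results on the 10 genes as they were: under the settings that kept every library, 231 values kept their direction and their side of the threshold, 3 turned, 5 newly passed and 1 no longer passed, and with 1 library left out 166 kept both, 13 turned and 1 newly passed. Between types III and I, 0 of the 10 genes were called with no filter on low levels (102 of all genes) and 2 with median-of-ratios scaling or quantile normalization; the replicate block called 971 genes, and leaving out a library 233 to 425 (315 without type I replicate 2, 233 and 247 without type III replicate 1 or 2). Between types II and I, 1 of the 10 was called with median-of-ratios scaling (97 of all genes), quantile normalization (103) or the replicate block (183), no filter gave 10 genes and no trend 15, and leaving out a library gave 0 to 1 of the 10 and 12 to 46 of all genes (12 without type II replicate 2, 19 without type I replicate 2). Between types III and II, no filter gave 2 genes, median-of-ratios scaling 85, quantile normalization 90, the replicate block 229, no trend 10, only the 4 libraries compared 40, and leaving out a library 5 to 47 (47 and 42 without type I replicate 1 or 2, 5 without type II replicate 1 or type III replicate 1, 7 without type III replicate 2). Higher calls made up 38 of 46 between types II and I and 11 of 26 between types III and II, against 68 of 97 and 23 of 85 with median-of-ratios scaling and 73 of 103 and 22 of 90 with quantile normalization. The block changed no call of the 10 genes other than that of Timp2 between types II and I.

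The log2 difference of Timp3 between types II and I turned to 0.027 with median-of-ratios scaling, and that of Mmp2 between types III and II to -0.068 with median-of-ratios scaling and -0.088 with quantile normalization. With 1 library left out, ranges that crossed 0 were, for types III against I, -0.40 to 0.16 (Adam17) and -0.18 to 0.066 (Adamts1). For types II against I they were -0.064 to 0.73 (Adam10), -0.070 to 0.11 (Adamts4) and -0.40 to 0.34 (Timp3). For types III against II they were -0.051 to 0.44 (Adam10), -0.48 to 0.16 (Adam15), -0.12 to 0.44 (Adam17), -0.31 to 0.45 (Mmp2) and -0.33 to 0.13 (Mmp14). The cause was not tested. Where 1 library is left out, its subset's lone library is assumed to vary like the others.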
